A study of Mus musculus with 12 samples.

Results

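The genes described here were Sall4, Cfc1 and the pluripotency-linked genes Pou5f1, Nanog, Tdgf1, Sox2, Lin28a and Utf1, followed through the single-cell transcriptomes of the earliest mouse cardiac precursor cells (CPs). They were taken by symbol from the table of expression values: 7 of the 8 named genes had a row among the 14063 symbols used, and Sox2 was not analysed here. The values came from 12 cells of CD1 embryos, 6 at the Early Allantoic bud (EB) stage and 6 at the Early Headfold (EHF) stage, with no allele or agent added in any group. At the EB stage 3 cells were Nkx2-5 single positive (EB Nkx2-5+) and 3 were Tbx5 single positive (EB Tbx5+). At the EHF stage 3 cells were Nkx2-5 single positive (EHF Nkx2-5+) and 3 carried both markers (EHF Nkx2-5+/Tbx5+). The study chose these cells by PCR on the amplified cDNA, taking preparations that scored negative for Sox17 and Sox2 and positive for Cfc1 and for Nkx2-5, Tbx5 or both, so Cfc1 and Sox2 took part in the choice of the cells.

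SALL4 is a zinc-finger transcription factor that embryonic stem cells need, that binds the NuRD chromatin-remodelling complex, and whose mutation in people causes a limb and eye syndrome in which heart defects can occur. CFC1 (Cryptic) and TDGF1 (Cripto) are EGF-CFC proteins, membrane-anchored co-receptors that let cells respond to NODAL and to GDF1 and GDF3; mouse embryos without Cfc1 have disturbed left-right asymmetry and heart malformations. POU5F1 (OCT4) and NANOG are core transcription factors of the pluripotent epiblast, UTF1 is a chromatin-associated protein of pluripotent and germ cells, and LIN28A is an RNA-binding protein of early embryonic cells that blocks the maturation of let-7 microRNAs.

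LIN28A and let-7 act on each other, because let-7 in turn represses Lin28a through sites in its 3′ UTR, so the sequences on which that pairing rests are shown for the members measured here. All 9 let-7 family microRNAs matched in RefSeq (GRCm38.p6) shared the same seed, bases 2 to 8, given in capitals.
mmu-let-7a-5p: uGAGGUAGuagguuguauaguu
mmu-let-7g-5p: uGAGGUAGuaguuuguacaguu
mmu-miR-98-5p: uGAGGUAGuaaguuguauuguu

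The complement of that seed, CTACCTC, was searched on the transcript strand of the longest annotated 3′ UTR of each gene (GENCODE M21, GRCm38). The Lin28a 3′ UTR of 2775 bases held 2 matches and the Sall4 3′ UTR of 1697 bases held 1, each followed by an A. The 3 windows are given 5′ to 3′ with the match in capitals.
Lin28a, chr4:134005189-134005211, minus strand: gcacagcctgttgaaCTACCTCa
Lin28a, chr4:134004551-134004573, minus strand: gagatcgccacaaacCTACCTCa
Sall4, chr2:168748940-168748962, minus strand: agggctttaatttatCTACCTCa

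No match was found in the 3′ UTRs of Cfc1, Pou5f1, Nanog, Tdgf1 or Utf1. Of the 12545 genes of the table with an annotated 3′ UTR, 1301 (10.4%) held at least 1 match and 158 (1.26%) held 2 or more. Among 1703 3′ UTRs within 20% of the length of that of Lin28a, 2.17% held 2 or more, and among 1937 within 20% of the length of that of Sall4, 11.8% held at least 1. A match is a stretch of letters and not a measured site, and no microRNA was measured in these libraries.

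The values were reads per 1000000 alignments (RPM), not corrected for gene length, so levels are compared between cells and not between genes. The cells had 12475588 to 37905007 alignments, 1 read being worth 0.0264 to 0.0802 RPM. Single reads were recorded, and a value of 0 was taken to allow a level worth up to 3 reads, 0.0791 to 0.240 RPM. Intervals from reads would cover counting error only, since the reads were PCR copies without molecular identifiers. Fewest genes were read at 1 RPM or more in EHF Nkx2-5+/Tbx5+ replicate 3 (2682) and in EHF Nkx2-5+ replicate 2 (3073), against 3249 to 5650 in the other 10 cells. The lateral plate and cardiac marker list was expressed in every cell, its sum running from 145 to 3387 RPM, whereas Sox17 and the other definitive endoderm markers listed summed to at most 2.00 RPM. Sox17, Nkx2-5 and Tbx5 had served to choose the cells, so this contrast was partly set by that choice. Tbx5 itself was at 0.22, 0.03 and 0.33 RPM in the 3 EB Tbx5+ cells, so that label rests on the PCR rather than on these reads. The EB Nkx2-5+ cells held 33.6, 41.9 and 1.48 RPM of Nkx2-5, which was at 0 in the EB Tbx5+ cells.

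The listed genes fell into those read throughout the CPs and those nearly silent in them. Sall4 and Lin28a were at 1 RPM or more in 12 of 12 cells and Cfc1 in 9 of 12. Pou5f1 reached 1 RPM in 2 cells, Tdgf1 and Utf1 in 1 cell each, and Nanog in none. Among all symbols, 5031 genes averaged 10 RPM or more across cells, and 590 of these, 11.7%, were at 1 RPM or more in all 12 cells and 46.5% in 9 or more. Sall4, Cfc1 and Lin28a were the 3 of the 7 listed genes that reached this average, and group differences are given for them.

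**Figure D1:**
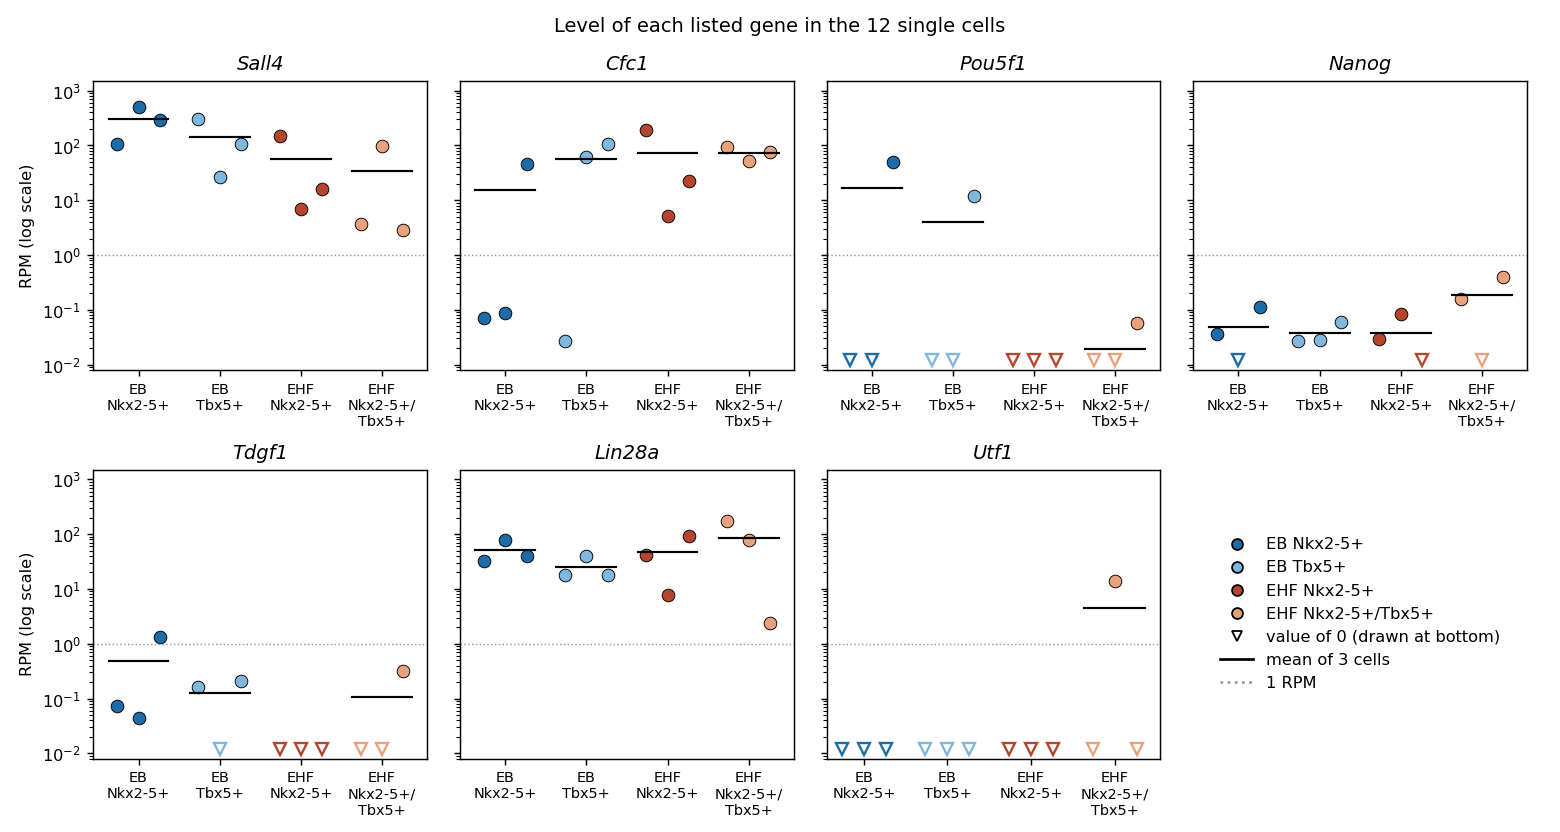
RPM on a log axis for each of the 7 listed genes in the 12 cells, coloured by subpopulation; open triangles are values of 0, bars are means of 3 cells and the dotted line is 1 RPM. Sall4 and Lin28a lie above 1 RPM in every cell, 3 EB cells stand near the bottom of the Cfc1 panel, and Pou5f1 and Utf1 appear in single cells.

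Sall4 (chr2:168748332-168767943, minus strand, GRCm38, 4 exons in its longest transcript) was higher in EB than in EHF CPs. In EB Nkx2-5+ CPs it stood at 105.2, 505.2 and 297.6 RPM, and in EB Tbx5+ CPs at 302.6, 26.5 and 107.9 RPM. In EHF Nkx2-5+ CPs the values were 150.3, 6.86 and 16.3 RPM, and in EHF Nkx2-5+/Tbx5+ CPs 3.64, 96.3 and 2.93 RPM. Of the 6 EHF cells, 4 lay below the lowest EB cell, 2 lay inside the EB range and none lay above the EB mean, so the stages differed in level but overlapped. The means were 224 ± 177 RPM at EB and 46.1 ± 62.4 RPM at EHF (SD over cells, n = 6 each), and the medians 203 and 11.6 RPM.

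The subpopulations ranked in Sall4 level as EB Nkx2-5+ (303 ± 200 RPM), EB Tbx5+ (146 ± 142 RPM), EHF Nkx2-5+ (57.8 ± 80.2 RPM) and EHF Nkx2-5+/Tbx5+ (34.3 ± 53.7 RPM; SD, n = 3 cells each). Neighbours in that order differed by less than the larger of their SDs. The labels tie no cell to an embryo, so each subpopulation counted as 1 sample and no test was made of any difference. Differences are given as the log2 ratio of the mean RPM of 2 groups of cells after 10 RPM was added to each mean, and a gene was counted as different at 2-fold or more on that scale. The 4 contrasts of a subpopulation with the other 9 cells and the stage contrast use the same 12 cells, so they are not independent of each other.

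Against the other 9 cells Sall4 was 1.81 higher in EB Nkx2-5+ CPs (log2), with 3 of 3 cells above the mean of the others, and 91.3% of the 5031 genes had a lower difference in that contrast. It was 0.14 higher in EB Tbx5+ CPs, a value that turned to -0.87 when EB Tbx5+ replicate 1 was left out. The difference was -1.33 in EHF Nkx2-5+ CPs, and -2.99 without EHF Nkx2-5+ replicate 1, whose 150.3 RPM made up most of that group's mean. In EHF Nkx2-5+/Tbx5+ CPs it was -2.01, and -3.75 without replicate 2 of that group. The EHF cells differed from the EB cells by -2.06, and 6.88% of the 5031 genes had a lower stage difference. Leaving out any 1 cell kept the stage difference between -2.73 and -1.67. Without the 2 cells with the fewest genes, both of them EHF cells low in Sall4, it was -1.61. The study placed Sall4 among the genes it found enriched in EB Nkx2-5+ CPs on these same cells, so the height of Sall4 there is not independent evidence of that.

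Cfc1 (chr1:34535648-34544313, plus strand, 6 exons) was nearly absent from the reads of 3 EB cells and present in the other 9. In EB Nkx2-5+ CPs it stood at 0.07, 0.09 and 45.3 RPM, the first pair of values resting on 2 reads each. In EB Tbx5+ CPs the values were 0.03 RPM, from 1 read, 60.5 RPM and 107.7 RPM. The EHF Nkx2-5+ cells had 189.3, 5.13 and 22.8 RPM and the EHF Nkx2-5+/Tbx5+ cells 94.8, 52.5 and 75.6 RPM. All cells had been chosen as Cfc1 positive by PCR on their cDNA, so in 3 of 12 cells the reads did not show, beyond 1 or 2 reads, the marker by which the cell was selected. These 3 cells had 27764442, 22681504 and 36733874 alignments. The cell with the fewest, EHF Nkx2-5+ replicate 3 (12475588), had 285 reads of Cfc1. The cause of the low reads was not tested.

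The order of the mean Cfc1 levels was the reverse of that of Sall4, though 189.3 RPM in EHF Nkx2-5+ replicate 1 carried the mean of its group. EHF Nkx2-5+/Tbx5+ CPs were at 74.3 ± 21.2 RPM, EHF Nkx2-5+ CPs at 72.4 ± 102 RPM, EB Tbx5+ CPs at 56.1 ± 54.0 RPM and EB Nkx2-5+ CPs at 15.2 ± 26.1 RPM (SD, n = 3 cells each). Neighbours again differed by less than the larger of their SDs. The EHF Nkx2-5+/Tbx5+ cells were the closest to each other, with 3 of 3 above the mean of the other 9 cells and a difference of 0.54.

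Cfc1 was lower in EB Nkx2-5+ CPs than in the other cells, with a difference of -1.62 (log2), or -2.94 without EB Nkx2-5+ replicate 3, the cell of that group in which it was read at 45.3 RPM. The difference was 0.05 for EB Tbx5+ CPs and 0.49 for EHF Nkx2-5+ CPs. The last value turned to -1.29 without EHF Nkx2-5+ replicate 1, the cell with the most Cfc1. EHF cells exceeded EB cells by 0.87, from means of 73.4 ± 65.7 and 35.6 ± 44.1 RPM (SD, n = 6 cells each). That stage difference was 0.40 without EHF Nkx2-5+ replicate 1 and 1.42 without EB Tbx5+ replicate 3.

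Lin28a (chr4:134003330-134018841, minus strand, 4 exons) was the most even of these 3 genes. The EB Nkx2-5+ cells had 31.9, 79.9 and 40.0 RPM and the EB Tbx5+ cells 18.2, 39.7 and 17.9 RPM. The EHF Nkx2-5+ cells had 40.9, 7.87 and 93.7 RPM and the EHF Nkx2-5+/Tbx5+ cells 176.0, 77.6 and 2.38 RPM. Its lowest values fell in the 2 cells with the fewest genes, EHF Nkx2-5+ replicate 2 and EHF Nkx2-5+/Tbx5+ replicate 3, where Sall4 was also low, at 6.86 and 2.93 RPM. The coefficient of variation over the 12 cells was 0.934 for Lin28a, 1.04 for Cfc1 and 1.16 for Sall4, against a median of 1.58 over the 5031 genes. A lower value was found in 14.1%, 19.3% and 26.1% of those genes in turn.

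The order of Lin28a was EHF Nkx2-5+/Tbx5+ (85.3 ± 87.1 RPM), EB Nkx2-5+ (50.6 ± 25.7 RPM), EHF Nkx2-5+ (47.5 ± 43.3 RPM) and EB Tbx5+ (25.2 ± 12.5 RPM; SD, n = 3 cells each), with neighbours closer than the larger of their SDs. Lin28a was lower in EB Tbx5+ CPs than in the other cells, with a difference of -1.01, just past 2-fold, and 0 of 3 cells above the mean of the others. That value was -0.69 without EHF Nkx2-5+/Tbx5+ replicate 1, the cell with the most Lin28a. It was 0.90 higher in EHF Nkx2-5+/Tbx5+ CPs, and -0.03 without that same cell. The differences for EB Nkx2-5+ and EHF Nkx2-5+ CPs were -0.05 and -0.15. EHF cells exceeded EB cells by 0.67 (means of 66.4 and 37.9 RPM), by 0.18 without that same EHF Nkx2-5+/Tbx5+ cell and by 1.16 without the 2 cells with the fewest genes.

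**Figure D2:**
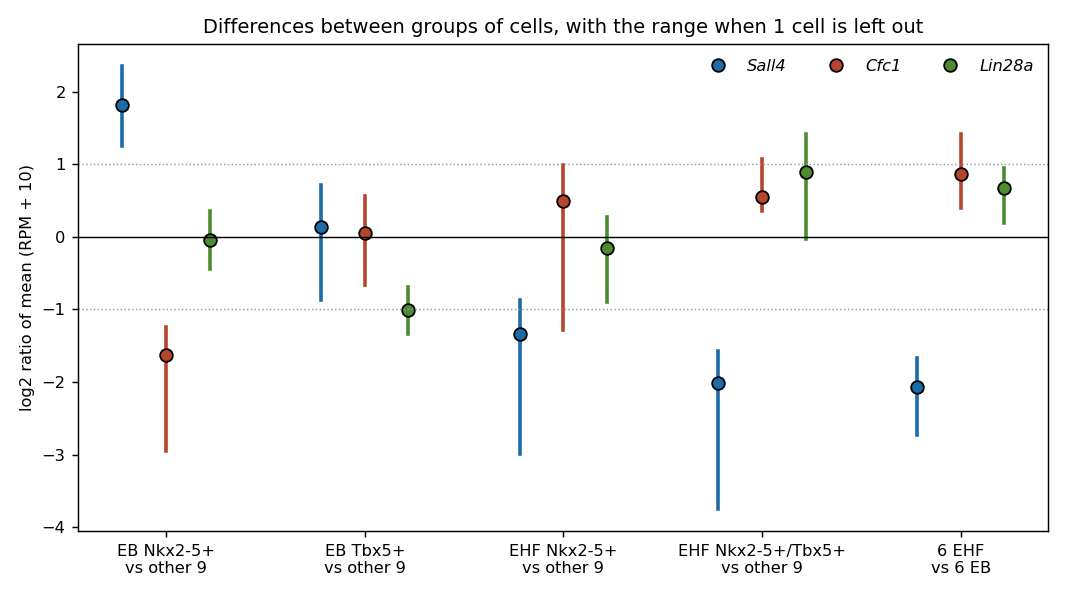
Log2 ratio of the mean RPM + 10 between groups of cells for Sall4, Cfc1 and Lin28a, with bars spanning the values obtained when each of the 12 cells was left out in turn; dotted lines mark 2-fold. For Sall4 the bars of the EB Nkx2-5+, EHF Nkx2-5+/Tbx5+ and stage contrasts stay beyond 2-fold, from 1.24 up and from -1.58 and -1.67 down, whereas the bars of Cfc1 for EHF Nkx2-5+ and of Lin28a for EHF Nkx2-5+/Tbx5+ cross 0.

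Large differences were common in these 12 cells, and the counts of listed genes are read against that. In EB Nkx2-5+ CPs 1 of the 3 genes was 2-fold or more higher (Sall4) and 1 was lower (Cfc1), beside 20.5% of the 5031 genes higher and 27.4% lower. In EB Tbx5+ CPs 0 were higher and 1 was lower (Lin28a), beside 16.2% and 33.0%. In EHF Nkx2-5+ CPs 0 were higher and 1 was lower (Sall4), beside 13.1% and 44.9%. In EHF Nkx2-5+/Tbx5+ CPs 0 were higher and 1 was lower (Sall4), beside 19.7% and 31.5%. Between the stages 0 were higher and 1 was lower at EHF (Sall4), beside 20.0% and 26.7%. The median difference over the 5031 genes was -0.07, -0.28, -0.80, -0.27 and -0.19 in these contrasts in turn, so a difference near -0.80 in EHF Nkx2-5+ CPs was that of the middle gene.

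The level of Sall4 relative to that of Lin28a was higher in most EB cells than in most EHF cells. The ratio of Sall4 to Lin28a, chosen after their values were seen, was 3.29, 6.32 and 7.44 in EB Nkx2-5+ CPs and 16.7, 0.668 and 6.04 in EB Tbx5+ CPs. It was 3.68, 0.871 and 0.174 in EHF Nkx2-5+ CPs and 0.0207, 1.24 and 1.23 in EHF Nkx2-5+/Tbx5+ CPs. The median was 6.18 over the EB cells and 1.05 over the EHF cells. Apart from EB Tbx5+ replicate 2 the EB cells began at 3.29, and EHF Nkx2-5+ replicate 1 was the 1 EHF cell above that, so the stages overlapped. A ratio within a cell is free of the scaling of that cell, and its size has no meaning between genes of different length. Over the 12 cells, which share the same libraries, Pearson's r of log2(RPM + 1) was 0.24 (Spearman's rho 0.12) for Sall4 and Lin28a, -0.39 (-0.33) for Sall4 and Cfc1, and 0.05 (0.08) for Cfc1 and Lin28a.

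**Figure D3:**
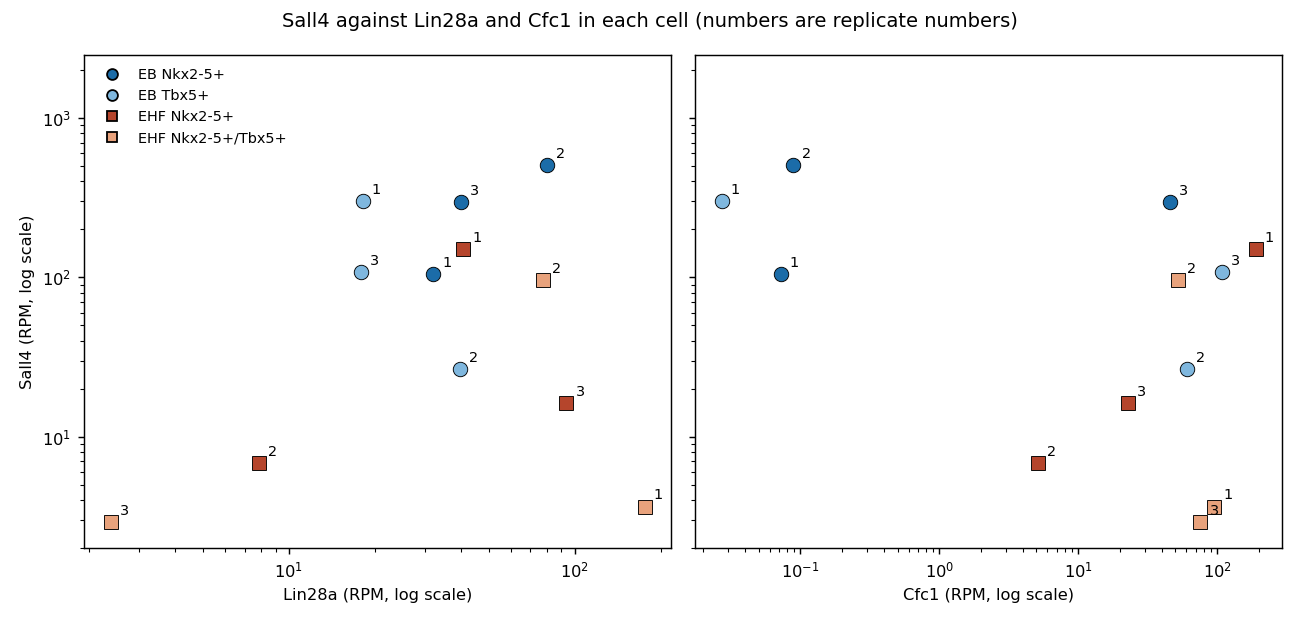
Sall4 against Lin28a (left) and against Cfc1 (right) in each cell, RPM on log axes, with circles for EB and squares for EHF cells and the replicate number beside each point. The 3 EB cells with 1 or 2 Cfc1 reads had 105.2 to 505.2 RPM of Sall4, and EHF Nkx2-5+/Tbx5+ replicate 1 joined the highest Lin28a value, 176.0 RPM, to a Sall4 value of 3.64 RPM.

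Pou5f1 (chr17:35506018-35510772, plus strand) was read in 2 EB cells. It stood at 50.4 RPM (1810 reads) in EB Nkx2-5+ replicate 3 and at 11.9 RPM (392 reads) in EB Tbx5+ replicate 3, was at 0.06 RPM (2 reads) in EHF Nkx2-5+/Tbx5+ replicate 3, and was at 0 in the other 9 cells. The cell with the most Pou5f1 was also the cell with the most Tdgf1 (chr9:110939603-110946158, minus strand), 1.31 RPM from 47 reads. Elsewhere Tdgf1 had 0 to 11 reads, with 0 in 6 cells, among them all 3 EHF Nkx2-5+ CPs. Of the EGF-CFC pair, Cfc1, for which the cells had been chosen, was read in 9 cells at 1 RPM or more and Tdgf1 in 1.

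Nanog (chr6:122707489-122714633, plus strand) had 0 to 14 reads in a cell and at most 0.402 RPM, in EHF Nkx2-5+/Tbx5+ replicate 3. Utf1 (chr7:139943789-139945112, plus strand) was read in EHF Nkx2-5+/Tbx5+ replicate 2 alone, at 13.7 RPM from 502 reads, and was at 0 in the other 11 cells. A 0 in a single amplified cell can be a transcript that was not captured, and the part of capture in these zeros was not tested. RefSeq lists 7 pseudogenes named after Pou5f1, 2 after Nanog and 2 after Tdgf1, so a few reads of these genes are uncertain in origin. Genes on the opposite strand overlap Sall4 (Gm14261), Cfc1 (Gm28419 and Prss40), Pou5f1 (Gm19553) and Lin28a (Gm13061). Whether counting used strand is not stated, and reads of such pairs cannot be told apart.

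Genes that accompany the listed ones were taken from fixed lists, and 23 of these list genes were past 2-fold between the stages. When each cell was left out in turn, an alternative added after the data were seen, 19 of the 23 lost that call without some single cell, and 4 (Etv5, Epcam, Igf2bp1 and Evx1) kept it throughout. Of 21 genes of the naive pluripotent state 11 had a row and 3 reached a mean of 10 RPM, of which 0 were 2-fold or more higher and 1 was lower at EHF, with a median of -0.18. Over all 5031 genes the shares were 20.0% and 26.7% and the median -0.19. Zfp42 (REX1), a zinc-finger marker of naive embryonic stem cells, was at 419 RPM in EB Tbx5+ replicate 2, at 13.0 RPM in EB Tbx5+ replicate 3 and at 0.03 RPM or less in the other 10 cells, a difference of -3.03 that was -0.33 without EB Tbx5+ replicate 2. Klf4, a reprogramming factor, stood between 54.7 and 81.3 RPM in 4 cells, 2 of each stage, and at 1.12 RPM or less in the other 8. The 2 EB cells with Pou5f1 were the 2 EB cells with Klf4, at 81.3 and 71.0 RPM, and the cell with Utf1 was an EHF cell with Klf4, at 54.7 RPM. Stat3, which relays LIF signals, was at 74.0 RPM in EB Tbx5+ replicate 2 and at 65.9 RPM in that same Utf1 cell, and near 0 elsewhere.

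Genes of the formative and primed epiblast were more widely read. Of the 18 genes on that list, all with a row, 7 reached a mean of 10 RPM, of which 2 (28.6%) were 2-fold or more higher and 3 (42.9%) lower at EHF, beside 20.0% and 26.7% of all genes, with a median of -0.94. Dnmt3b, the de novo DNA methyltransferase of the epiblast, was at 1 RPM or more in 10 cells and highest, at 1054 RPM, in the cell with Utf1, with a stage difference of 1.49 that was 0.32 without that cell. Sox11 was 1.66 higher at EHF and read in 11 cells, and 0.83 higher without EHF Nkx2-5+ replicate 3 (400 RPM). Fgfr1, the main FGF receptor of this tissue, was at 1 RPM or more in 11 cells with a difference of -0.94. Etv5, a transcription factor downstream of FGF signalling, was lower at EHF (-2.22), with 169 to 225 RPM in 3 EB cells and at most 44.3 RPM in any EHF cell. Epcam, an epithelial adhesion protein, was also lower (-2.54), as was Pou3f1 (OCT6; -1.67). Each of these last 2 rested on 2 EB cells, at 164 and 123 RPM for Epcam and at 82.5 and 48.9 RPM for Pou3f1. The cell with 82.5 RPM of Pou3f1 was the cell with the most Pou5f1, and without it the difference of Pou3f1 was -0.98.

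Epcam was read in the EB cells in which Sall4 was highest and Cfc1 was at 1 or 2 reads, a pattern noticed after the values were seen. EB Nkx2-5+ replicate 2 and EB Tbx5+ replicate 1 had the 2 highest Sall4 values, 505.2 and 302.6 RPM, with 2 reads and 1 read of Cfc1. They were the 2 cells with T (Brachyury), the transcription factor of the primitive streak, at 47.8 and 124 RPM, against 0 in the other 10 cells. Lhx1 (6.22 and 9.80 RPM) was likewise at 1 RPM or more in these 2 cells alone, Evx1, a homeobox gene of the posterior streak, was at 239 and 54.5 RPM, and Kdr, the VEGF receptor of early mesoderm and endothelium, was at 395 and 339 RPM. Evx1 was also read in EB Nkx2-5+ replicate 3 (113 RPM) and Kdr in EHF Nkx2-5+ replicate 3 (495 RPM) and EB Tbx5+ replicate 3 (2.74 RPM). Evx1, like Sall4, was among the EB Nkx2-5+ genes of the study. The remaining EB cell with 2 Cfc1 reads, EB Nkx2-5+ replicate 1, differed from the 2 cells with T. It had T and Epcam at 0, Kdr at 0.04 RPM and Sall4 at 105.2 RPM. It alone had Lefty2, a secreted NODAL inhibitor, above 1 RPM, at 22.2 RPM, and it had 225 RPM of Mesp1, the early cardiac mesoderm factor, which was at 0.18 and 0.22 RPM in the other pair. Mesp1 was also read in the 2 cells with Pou5f1, at 532 RPM in EB Nkx2-5+ replicate 3 and 90.2 RPM in EB Tbx5+ replicate 3. In EB Tbx5+ replicate 2 Mesp1 was at 317 RPM. The other streak genes with a row were near 0 in the 2 cells with T. Mixl1, Wnt3 and Fgf8 were at 0 and Eomes at 0.13 and 0.52 RPM. Fgf8 was highest in EHF Nkx2-5+ replicates 2 and 3, at 15.2 and 16.8 RPM. The study listed Fgf8 among its EHF Nkx2-5+ genes, drawn from these same cells, and described it as a gene of the second heart field. Of the primitive streak list 7 of 8 genes had a row, and the median of its sums in EB cells was 61.5 RPM. The sums were 293, 123 and 189 RPM in EB Nkx2-5+ replicates 2 and 3 and EB Tbx5+ replicate 1. They were at 0 to 0.03 RPM in the other EB cells. In EHF cells the sum ran from 0 to 16.8 RPM with a median of 3.28, the highest sums coming from Fgf8. The part of this list in the Sall4 difference was not tested.

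**Figure D4:**
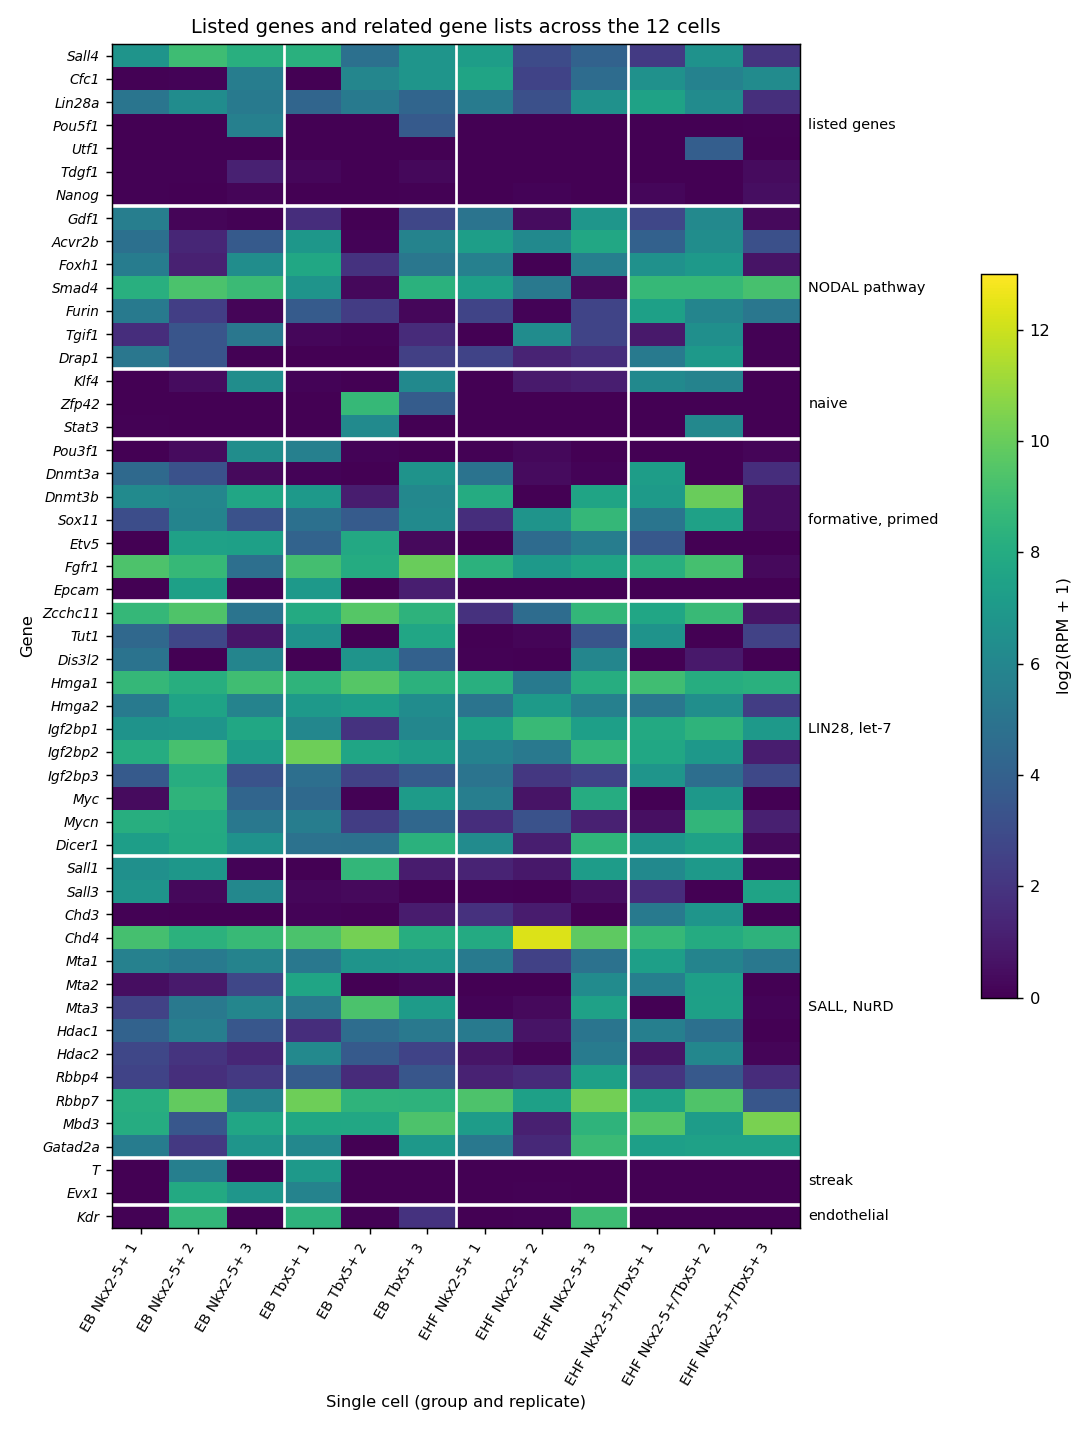
Log2(RPM + 1) of the 7 listed genes and of the genes of related lists averaging 10 RPM or more (rows, grouped by list) in the 12 cells (columns). EB Nkx2-5+ replicate 2 and EB Tbx5+ replicate 1 carry Sall4, Epcam, T, Evx1 and Kdr with Cfc1 near 0, and EHF Nkx2-5+/Tbx5+ replicate 3 is dark in most rows.

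Of the genes that act with CFC1 in the NODAL pathway, those reaching a mean of 10 RPM were the ligand Gdf1, the receptor Acvr2b, Foxh1, Smad4 and modifiers. Smad2 was at most 0.87 RPM in any cell, and Smad3 averaged 0.84 RPM with at most 3.13 RPM in a cell. Nodal, Acvr1b and Acvr1c had no row, so their levels in these cells were not known. The list of 21 genes had 18 with a row, 5 of which stayed under 1 RPM in every cell, and 7 reached a mean of 10 RPM. At EHF 5 of these 7 were 2-fold or more higher and 0 lower, with a median of 1.10, beside the 20.0% and 26.7% of all genes and the median of -0.19 given above. Each of the 5 calls rested on single cells: the count ran from 2 to 5 when 1 cell was left out, and the median was then at least 0.58. Gdf1, a ligand that signals through EGF-CFC co-receptors, was 1.29 higher, at 1 RPM or more in 7 cells and highest in EHF Nkx2-5+ replicate 3 (114 RPM), without which the difference was 0.71. The type II receptor Acvr2b was 1.18 higher and read in 11 cells, and 0.75 higher without that same EHF Nkx2-5+ cell. Furin, a protease that cleaves NODAL precursors, was 1.44 higher, and 0.61 higher without EHF Nkx2-5+/Tbx5+ replicate 1 (165 RPM). Tgif1, a repressor of SMAD2 and SMAD3 activity, and Drap1, which restrains FOXH1, were each 1.10 higher, and 0.58 and 0.10 higher without EHF Nkx2-5+/Tbx5+ replicate 2 (87.9 and 127 RPM). The SMAD partners Foxh1 (-0.20) and Smad4 (-0.14) had stage differences that turned sign when single cells were left out. Acvr2b, Furin and Smad4 were on lists of subpopulation genes that the study drew from these same cells.

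In the 3 EB cells with 1 or 2 reads of Cfc1 some of these partners were read and others were near 0. Foxh1 was at 42.9, 1.28 and 210 RPM in EB Nkx2-5+ replicate 1, EB Nkx2-5+ replicate 2 and EB Tbx5+ replicate 1. Acvr2b was at 26.98, 1.68 and 116 RPM and Smad4 at 289, 644 and 104 RPM in the same cells. Gdf1 was at 46.1, 0.13 and 2.23 RPM and Furin at 40.6, 4.28 and 12.1 RPM there. Tgif1 was at 2.23, 9.88 and 0.16 RPM and Drap1 at 34.6, 9.79 and 0 RPM. The part of capture in these values was not tested. EB Tbx5+ replicate 2, with 60.5 RPM of Cfc1, was in turn low in Acvr2b (0.11 RPM), Smad4 (0.22 RPM) and Gdf1 (0).

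Around LIN28A, the genes of the let-7 axis with 2-fold stage differences were mostly on the lower side at EHF. All 16 listed genes had a row and 11 reached a mean of 10 RPM, of which 4 (36.4%) were 2-fold or more lower and 1 (9.09%) higher at EHF, beside 26.7% and 20.0% of all genes, with a median of -0.71. Without regard to size 10 of the 11 were lower, where 55.3% of all genes were, and Lin28a was 0.67 higher. Igf2bp3 (-0.71) and Myc (-0.24) turned to 0.81 and 0.86 without EB Nkx2-5+ replicate 2, and Dicer1 changed sign without each of 3 cells in turn. Lin28b, the paralogue, stayed at or below 9.34 RPM in every cell. The genes past 2-fold at EHF were the terminal uridylyltransferase Zcchc11 (-1.15), which works with LIN28A on the let-7 precursor, Tut1 (-1.16), a related enzyme, Dis3l2 (-1.16), the exonuclease that degrades uridylated let-7 precursors, and Igf2bp2 (-1.53) among those lower, and Igf2bp1 (1.33) as the higher gene. With each of the 12 cells left out in turn, Zcchc11 and Tut1 each kept the call 7 times, Dis3l2 10 times and Igf2bp2 11 times. For each of these 4 lower genes, leaving out 1 EB cell was enough to lose the call. Tut1 was then at -0.25 without EB Tbx5+ replicate 3 (206 RPM), Dis3l2 at -0.62 and Zcchc11 at -0.89 without EB Tbx5+ replicate 2 (106 and 747 RPM), and Igf2bp2 at -0.94 without EB Tbx5+ replicate 1 (1111 RPM). Igf2bp1 stayed between 1.09 and 1.71. Igf2bp1 and Igf2bp2, both RNA-binding proteins and known let-7 targets, thus lay on opposite sides. Igf2bp1 was on the study's list for EB Tbx5+ CPs, drawn from these cells, as a gene lower there, and its difference in EB Tbx5+ CPs here was -2.04. Hmga1 (-0.62) and Hmga2 (-0.83), chromatin proteins and let-7 targets, were read in 12 of 12 cells. Dicer1, which makes mature microRNAs, was at 1 RPM or more in 11 cells with a difference of -0.22.

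The let-7 seed match shown for Lin28a and Sall4 was also found in the 3′ UTRs of other genes of this list, 4 times each in Hmga2, Igf2bp1, Lin28b and Trim71 and 1 time each in Hmga1, Igf2bp2 and Igf2bp3. It was not found in Zcchc11, Zcchc6, Tut1, Dis3l2, Myc, Mycn, Dicer1, Drosha or Dgcr8. Of the 7 genes that hold the match and averaged 10 RPM or more, 2 were higher and 5 lower at EHF, of which 1 (Igf2bp1, 1.33) and 2 (Igf2bp2, -1.53, and Sall4, -2.06) were past 2-fold. The other 4 were Lin28a (0.67), Hmga1 (-0.62), Hmga2 (-0.83) and Igf2bp3 (-0.71, but 0.81 without EB Nkx2-5+ replicate 2).

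Among the paralogues of Sall4 and the subunits of NuRD, differences went both ways. Of 16 listed genes 13 reached a mean of 10 RPM, and 4 of them (30.8%) were 2-fold or more higher and 1 (7.69%) lower at EHF, beside 20.0% and 26.7% of all genes, with a median of 0.09. All 5 calls were lost without 1 cell. Sall1 was patchy, at 1 RPM or more in 8 cells and highest in EB Tbx5+ replicate 2 (391 RPM), the EB cell lowest in Sall4, with a stage difference of -0.69 that was 0.38 without that cell. Sall3 was at 1 RPM or more in 4 cells, with a difference of 0.08. The remodeller Chd4 was read in 12 of 12 cells and was 1.03 higher at EHF, a value carried by 5100 RPM in EHF Nkx2-5+ replicate 2, a cell with few genes, against 244 to 1244 RPM in the other 11, and -0.45 without it. The histone-binding Rbbp4 (1.38) was at -0.20 and Gatad2a (1.40) at 0.82 without EHF Nkx2-5+ replicate 3 (169 and 460 RPM). Chd3 (1.80) was at 0.86 without EHF Nkx2-5+/Tbx5+ replicate 2 (111 RPM), and Mta3 (-1.26), the lower gene, at 0.03 without EB Tbx5+ replicate 2 (629 RPM). Rbbp7 (-0.07) and Mbd3 (0.76) were read in 12 of 12 cells. Chd3 was on a study list drawn from these cells.

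Marker lists of other cell types were summed in each cell. The neural ectoderm list, 7 of 9 genes with a row, summed to at most 0.301 RPM in EHF cells and had a median of 0.066 RPM in EB cells, its highest sum of 36.4 RPM lying in EB Nkx2-5+ replicate 3, the cell with the most Pou5f1, through Nes (25.2 RPM) and Otx2 (11.2 RPM). The germ cell list, 6 of 9 genes with a row, ran from 0.995 to 44.7 RPM in EB cells and from 0 to 33.1 RPM in EHF cells, with the germ cell markers Kit and Ddx4 at 0 in all 12. In the 2 cells with Pou5f1 its sum was 3.26 and 1.92 RPM. Dppa3, Prdm14 and Nanos3 of that list had no row, so the sums do not cover them. Of the visceral endoderm list 1 of 8 genes, Cubn, had a row, at most 0.06 RPM. The endothelial and blood list, 6 of 10 genes with a row, had medians of 1.55 RPM at EB and 0.013 RPM at EHF, with Tek at 0. Its highest sums were 442 RPM in EB Nkx2-5+ replicate 2 and 339 RPM in EB Tbx5+ replicate 1, the EB cells with the most Sall4, and 497 RPM in EHF Nkx2-5+ replicate 3, nearly all from Kdr, with Tal1 at 46.6 RPM in the first of these. The part of these markers in the values of the listed genes was not tested.

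The genes whose pattern over the 12 cells was most like that of a listed gene were taken as the 3 with the highest r of log2(RPM + 1) among 5030 others, which is a description since the highest of many is large in any table of 12 cells. For Sall4 they were Pitpnb (r = 0.93, rho = 0.92), a phosphatidylinositol transfer protein, Rsl1d1 (0.92, 0.85), a nucleolar protein, and Fam96a (0.91, 0.94), an iron-sulphur cluster factor. Pitpnb, like Sall4, was among the EB Nkx2-5+ genes of the study. For Cfc1 they were Tmem115 (0.88, 0.91), Ppp6r1 (0.83, 0.83) and the ribosomal protein gene Rps28 (0.81, 0.76), whose reads may be shared with processed copies. For Lin28a they were the mitochondrial ribosomal protein gene Mrps28 (0.91, 0.96), the actin nucleation subunit Arpc2 (0.87, 0.90) and the histone deacetylase Hdac1 (0.86, 0.78). The 3 genes most like Sall4 and 2 of the 3 most like Lin28a, Mrps28 and Hdac1, were at 0.26 RPM or less in EHF Nkx2-5+/Tbx5+ replicate 3, the cell with the fewest genes, which contributes to each of these r values.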

How the data were processed

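Single cells from the anterior region of embryos were picked, their cDNA was made with oligo(dT) primers and amplified by PCR, and Nextera libraries were sequenced on an Illumina GA IIx. The deposited signal values are RPM, reads per 1000000 alignments as the authors computed them with Partek software; the labels also name CASAVA 1.7.0 and mm10, while for the aligner no name was given in the sources used here. The sheet repeats the same values 64 times, and the first copy was read (14085 rows, 22 of them names turned into dates and left out). Of values of 0.5 to 20 reads, 96.3% were whole reads within 0.02.

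Means, log2 ratios with 10 RPM added, counts at 2-fold and correlations were computed with Python 3.11.15, numpy 2.4.6 and pandas 2.3.3, and the code was tested on simulated data. With 1 sample a group, no test was made. The text names the listed genes, the 3 most alike genes for each, and from each list up to 4 genes by mean and 4 by stage difference, with markers at 0; other genes were named after their values were seen. The members and lists were chosen with earlier results of these data known. Alternatives changed the RPM added (1 or 100), the averaging, the scaling, the minimum (none or 50 RPM) and the cells used.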

Additional observations from a re-analysis of the deposited data

How the results depend on the processing

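The differences of Sall4, Cfc1 and Lin28a were recomputed under 21 alternatives, 12 of which left out 1 cell, and none of theirs past 2-fold changed sign. For Sall4 the EB Nkx2-5+ difference (1.17 to 3.07), the EHF Nkx2-5+/Tbx5+ difference (-3.75 to -1.001) and the stage difference (-3.30 to -1.15) stayed past 2-fold under all 21. Sall4 in EHF Nkx2-5+ CPs (-2.99 to -0.73) did so under 17, Cfc1 in EB Nkx2-5+ CPs (-2.94 to -0.54) under 20 and Lin28a in EB Tbx5+ CPs (-1.34 to -0.36) under 11. The number of the 3 genes past 2-fold with 100 RPM added was 1 for EB Nkx2-5+, 0 for EB Tbx5+ and 0 for EHF Nkx2-5+ CPs. It was 0 for EB Tbx5+ CPs with the mean of log2 values, with medians and when rescaled without the 100 most abundant genes. With 1 RPM added, the mean of log2 values or medians it was 2 for EHF Nkx2-5+/Tbx5+ CPs and 2 between stages, where it was also 2, of 7 genes, with no minimum (Pou5f1 being the added gene, -1.03). Without the 2 cells with the fewest genes it was 2 for EHF Nkx2-5+ CPs, 2 for EHF Nkx2-5+/Tbx5+ CPs and 3 between stages. Leaving out 1 cell gave 0 to 1 for EB Tbx5+, 0 to 2 for EHF Nkx2-5+, 1 to 2 for EHF Nkx2-5+/Tbx5+ CPs and 1 to 2 between stages. Of the 23 list genes past 2-fold between stages, recomputed without each cell after the data were seen, 19 lost that call and 3 changed sign: Chd4 (-0.45 to 1.40), Mta3 (-1.89 to 0.026) and Rbbp4 (-0.20 to 1.57). No paired analysis was possible because the labels tie no cell to an embryo and no test was made, so a replicate number has nothing to pair. The cause of these shifts was not tested.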
